A study of Mus musculus with 28 samples.

Results

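The secreted antagonists that bind bone morphogenetic proteins (BMPs) and activins were followed across duodenal mesenchyme and intestinal epithelium of the mouse. The 9 genes were taken by name: Nog, Grem1, Chrd, Chrdl1, Bmper, Twsg1, Fst, Fstl3 and Fstl1. They are 9 of the 55416 genes listed in the series. The rule names these genes and uses no measured value. In the table of BMP-treated organoids, which lists 29413 genes, 8 of the 9 have a row; Chrdl1 has none there.

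RNA was sequenced from 28 samples: 26 of intestinal organoids and 2 of mesenchymal cells. Organoids are small epithelial structures grown from crypts in matrigel, here from wild-type C57BL/6 mice. Crypts were kept for 48 h in ENR medium with no added BMP or Tgfb. The organoids were then given a recombinant ligand at 500 ng/ml for 24 h or were left untreated. ENR is known to contain Noggin protein, which RNA sequencing of the organoids does not see. In the first table the untreated and BMP2 groups had 4 samples each (replicates II, III, IV and VI). BMP3 had 3 (II, III and IV), and BMP4, BMP5 and BMP7 had 3 each (II, III and VI). A second table held 3 untreated and 3 Tgfb-treated samples (I to III); the label does not name the Tgfb isoform. The mesenchymal cells came from the duodenum of PdgfraH2BeGFP mice, in which a nuclear fluorescent protein is driven from the Pdgfra gene. The fresh cells and the immortalised cells are 1 sample each. The immortalised cells carried the HPV16 E6 gene by retrovirus, were selected with puromycin, and were sorted for high fluorescence. Immortalisation, selection, sorting and longer culture therefore cannot be told apart in that comparison. The labels do not say whether organoid replicates came from separate mice or cultures, so p-values measure the spread between these samples, which may be technical.

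BMPs and activins are dimeric ligands that bring together type I and type II serine/threonine kinase receptors, which then phosphorylate SMAD proteins. Secreted antagonists hold the ligand outside the cell and keep it from its receptors. In the intestine, BMP signalling is strongest towards the villus, and stromal cells beneath the crypts are a known source of antagonists such as Grem1 that protect the stem cell zone.

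The 3 tables were scaled separately, so no test was run across them, and levels set across tables are descriptions. Depth in the BMP table ranged from 21356372 to 24783765 recovered reads per sample, and 1 read corresponded to 0.826 to 1.28 normalized counts. The mesenchymal and Tgfb tables are in TPM, a transcript abundance scaled for gene length and library total, which keeps no depth. Epithelial and fibroblast markers followed the labelled tissues. In the Tgfb table's untreated organoids, Epcam stood between 731 and 785 TPM, and the fibroblast genes Dcn, Lum and Col3a1 were listed at 0 in all 3. In fresh mesenchyme, Dcn was at 3201 TPM, Epcam at 0.161 TPM, and Cdh1 and Vil1 at 0. The summed list of 8 epithelial genes was at 31.4 TPM in fresh mesenchyme, with 3 genes at 0. It was at 3492 to 3817 TPM in the 3 untreated organoid samples. The interstitial-cell list, Kit and Ano1, went the other way, at 2.08 TPM in fresh mesenchyme and 12.4 to 17.1 TPM in those organoids. In the BMP table, Dcn and Lum have no row and Col3a1 was at 0 in the 4 untreated samples. A summed fibroblast list, most of which was Vim, ran from 134 to 220 normalized counts there. Its highest value was in untreated replicate IV, which also held 22 reads of Col1a1 against 1 to 3 in the other untreated samples. In bulk RNA, fewer cells of a type and less RNA per cell cannot be told apart.

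The upstream sequences of the 3 members measured well enough for testing in both organoid tables are shown. Whether these letters have a part in the answers to the ligands was not tested. Each line gives the 250 bases before the RefSeq start of the gene (mouse build GRCm38.p6), written 5′ to 3′ on the gene's own strand. Fstl1 lies at chr16:37776805-37777054 on the plus strand, Fstl3 at chr10:79777024-79777273 on the plus strand and Twsg1 at chr17:65951188-65951437 on the minus strand. Capitals mark a match to CAGACA or its reverse complement TGTCTG.
Fstl1: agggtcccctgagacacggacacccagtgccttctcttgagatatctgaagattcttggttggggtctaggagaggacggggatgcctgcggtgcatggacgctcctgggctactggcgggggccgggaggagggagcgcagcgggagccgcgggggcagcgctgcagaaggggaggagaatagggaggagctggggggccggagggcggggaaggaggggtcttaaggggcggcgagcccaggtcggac
Fstl3: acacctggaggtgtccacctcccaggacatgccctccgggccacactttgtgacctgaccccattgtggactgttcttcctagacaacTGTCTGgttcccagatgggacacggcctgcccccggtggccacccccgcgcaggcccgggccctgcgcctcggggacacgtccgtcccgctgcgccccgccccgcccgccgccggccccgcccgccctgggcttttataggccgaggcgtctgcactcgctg
Twsg1: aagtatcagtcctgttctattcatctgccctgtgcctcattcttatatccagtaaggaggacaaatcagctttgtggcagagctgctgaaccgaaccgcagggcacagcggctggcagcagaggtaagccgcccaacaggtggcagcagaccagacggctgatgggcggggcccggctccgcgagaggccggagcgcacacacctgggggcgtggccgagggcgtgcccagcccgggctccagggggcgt
The letters searched on both strands were CAGACA, GTCTAGAC and GGCGCC, which contain or match forms of sequence known to be bound by SMAD proteins. Fstl3 had a single match, TGTCTG, whose first base lies at position -162 from the start. No match to the 3 motifs lay in these windows of Fstl1 or Twsg1. Shorter forms were not searched. The Twsg1 window does hold CAGAC, a part of CAGACA, and Fstl3 holds its reverse complement GTCTG outside the marked match too. Among 32851 promoter windows of the same length, 17.1% held CAGACA or its reverse complement, 0.167% held GTCTAGAC and 9.59% held GGCGCC. The G and C content was 68% for Fstl1, 71.2% for Fstl3 and 64.4% for Twsg1, against a median of 52.4% over all windows. A match describes letters only. Of the other members, Grem1, Chrd and Bmper had an entry in the sequence table; Fst, Nog and Chrdl1 did not.

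The mesenchymal cells carried all 9 antagonists, and the epithelium carried few of them. Grem1, which binds BMP2, BMP4 and BMP7, was at 1016 TPM in fresh and 2621 TPM in immortalised mesenchyme. It was listed at 0 TPM in all 6 organoid samples of the Tgfb table. In the BMP table, Grem1 had 0 reads in every sample except 2: untreated replicates IV and VI had 1 read each. At these depths a count of 0 allows up to 3 reads. Grem1 ranked 132 of the 21607 genes above 0 in fresh cells and 30 of 20794 in immortalised cells.

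Fstl1, a secreted glycoprotein of the follistatin and SPARC families that is known to bind BMP4, was the next most abundant member in mesenchyme, at 736 TPM in fresh and 547 TPM in immortalised cells. Untreated organoids held 1.10 to 2.05 TPM. Twsg1, which binds BMPs together with chordin and can oppose or favour their signalling, was the member least unequal between the tissues. Its level was 71.8 TPM in fresh cells, 63.2 TPM in immortalised cells and 16.8, 18.7 and 22.2 TPM in the untreated organoids. Twsg1 made up 87.1% to 93.0% of the summed TPM of the 9 members in those organoids. In mesenchyme the largest part was Grem1, with 51.9% of the sum in fresh and 79.1% in immortalised cells.

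The other mesenchymal members stood lower. Bmper, a chordin-like protein that binds BMPs in the matrix, was at 59.7 TPM in fresh cells and was listed at 0 in the 3 untreated organoid samples. Fstl3, which binds activins and myostatin, was at 51.8 TPM in fresh cells and at 0.397 to 0.637 TPM in untreated organoids. Chrdl1, a chordin-like antagonist, was at 13.7 TPM in fresh cells and listed at 0 in all 6 organoid samples of the Tgfb table. Fst (follistatin), which binds activins with very high affinity, was at 4.16 TPM in fresh cells and 0.0894 to 0.169 TPM in untreated organoids. Nog (noggin) was at 3.62 TPM in fresh cells and Chrd (chordin) at 2.06 TPM, and both were near or at 0 in untreated organoids. Within untreated organoids the order by TPM was Twsg1, Fstl1, Fstl3 and Fst, and the ranges of neighbours in that order did not overlap over 3 samples.

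**Figure D1:**
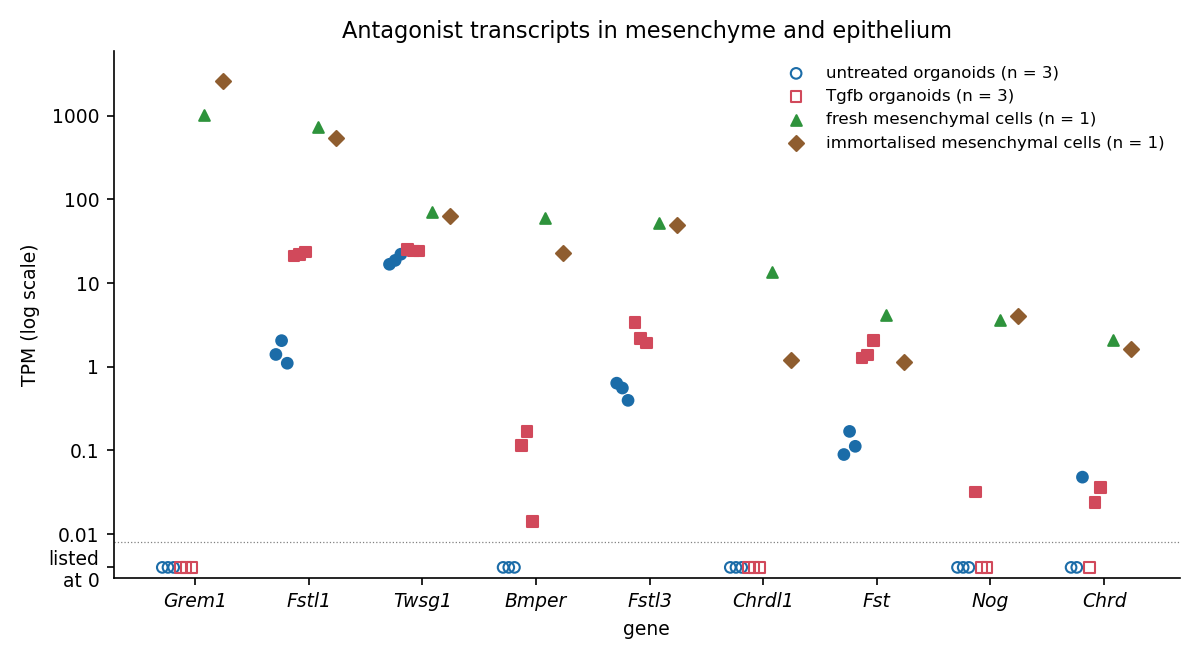
TPM (log axis) of the 9 genes in each of 8 samples: 3 untreated and 3 Tgfb-treated organoid samples, 1 fresh and 1 immortalised mesenchymal sample; open symbols under the dotted line are listed at 0. The 2 tables were scaled separately. Grem1 stands at 1016 and 2621 TPM in mesenchyme and at 0 in all 6 organoid samples, while Twsg1 lies between 16.8 and 71.8 TPM throughout.

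Between the 2 mesenchymal samples, 4 of the 9 members differed by more than 2-fold on the log2(TPM + 1) scale, 1 higher and 3 lower in the immortalised cells. Over 13652 genes with a mean of at least 1 TPM, 17% passed the same fold, 6.26% higher and 10.7% lower. Grem1 was 2.58-fold higher in the immortalised cells (log2 difference 1.37). Chrdl1 was lower, at 13.7 TPM in fresh and 1.19 TPM in immortalised cells (log2 difference -2.75). Bmper was at 59.7 and 23.2 TPM (-1.32), and Fst at 4.16 and 1.13 TPM (-1.28). The remaining 5 differed by less: Fstl1 by -0.43, Chrd by -0.21, Twsg1 by -0.18, Fstl3 by -0.07 and Nog by 0.13. With 1 sample per state there is no replicate check and no test. Markers of other cell types moved too: the summed immune list was at 118 TPM in fresh and 10.5 TPM in immortalised cells, the mesothelial list at 93.3 and 0.227 TPM, and the fibroblast list at 17556 and 5536 TPM. The smooth muscle and pericyte list was higher in the immortalised cells, at 6425 TPM in fresh and 9042 TPM in immortalised cells. The glia and neuron list was at 42.6 and 48.4 TPM. In fresh and immortalised cells, the endothelial list was at 17.8 and 1.22 TPM and the epithelial list at 31.4 and 2.20 TPM. The interstitial-cell list was at 2.08 and 0.125 TPM. The part of these lists in the member differences was not tested.

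In epithelium, the 5 BMP ligands were each compared with the same 4 untreated samples, so these comparisons share their controls. Of the 8 members with a row, 4 had a mean of at least 10 normalized counts and were tested with limma on log2(normalized count + 1): Fst, Fstl1, Fstl3 and Twsg1. Changes below are log2 differences on that scale, with standard error (SE) and a p adjusted over all 14746 genes tested. Because ligands moved large parts of the transcriptome, the share of all genes past an adjusted p of 0.05 is given beside each count. BMP2 changed 3 of the 4 members, where 75.1% of all genes passed. BMP4 also changed 3 of 4 (65.1% of genes), BMP7 changed 3 of 4 (32.4%) and BMP5 changed 2 of 4 (26.3%). In the BMP3 comparison no member passed, and 0% of genes did. Members whose treated and untreated samples did not overlap numbered 3 for BMP2, 3 for BMP4, 3 for BMP7, 2 for BMP5 and 1 for BMP3. The shares of all genes without overlap were, in that order, 67.6%, 64.8%, 42.4%, 35.7% and 2.53%. At an unadjusted p under 0.05, limma gave 110 genes and 0 of 4 members with BMP3. At an adjusted p under 0.05, edgeR called 0 genes with BMP3 and DESeq2 called 1. The shares with BMP2 and BMP4 lie near the share of all genes, so the counts say little about these genes as a set; what differed was size and direction. All 4 members differed among the 5 ligands in an F-test, as did 84.1% of genes.

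Fst rose most with BMP2. The untreated samples II, III, IV and VI held 12.4, 9.96, 9.76 and 10.7 normalized counts of Fst. With BMP2 the same replicate numbers held 204, 193, 225 and 254. These groups were far apart, with a mean of 219 ± 26.8 (SD, n = 4) against 10.7 ± 1.20 (SD, n = 4), a 20.5-fold ratio (log2 change 4.23, SE 0.320, limma adjusted p = 7.29e-10).

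With BMP7, Fst was at 37.2, 61 and 88.5 in replicates II, III and VI (log2 change 2.35, SE 0.346, limma adjusted p = 4.16e-05). With BMP5 it was at 18.8, 54.6 and 61.1 (log2 change 1.81, limma adjusted p = 0.000705). Both groups lay wholly above the untreated range, with replicate II the lowest in each. With BMP4 it was at 24.9, 21.7 and 14.4, also above every untreated sample (log2 change 0.84, limma adjusted p = 0.0411). That BMP4 call was lost in 5 of 7 reruns without a sample, holding only without untreated replicate II or BMP4 replicate VI. It was also lost with edgeR (adjusted p = 0.0747) and with equal total counts (log2 change 0.46, adjusted p = 0.241). With BMP3 the values of 13.3, 8.45 and 11.4 overlapped the untreated ones (log2 change 0.03, 95% interval -0.70 to 0.75).

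The closely related ligands BMP2 and BMP4 gave unlike Fst levels at the same dose and time. Fst was 3.39 higher with BMP2 than with BMP4 on the log2 scale (SE 0.346, limma adjusted p = 7.54e-08), where 66.8% of genes passed. It was also 1.88 higher with BMP2 than with BMP7 (limma adjusted p = 0.000122; 62.8% of genes passed). BMP4 against BMP7 gave -1.52 (limma adjusted p = 0.00168; 59.8% of genes passed). BMP5 and BMP7 did not differ past the threshold for any of the 4 tested members; 0.0136% of genes passed there. The 95% interval of that difference was -1.32 to 0.23 for Fst and -0.11 to 1.17 for Fstl1. These 4 pairs of ligands were the ones compared.

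Fstl1 moved in opposite directions with different BMPs. Untreated samples II, III, IV and VI held 144, 140, 310 and 178 normalized counts. BMP5 gave 898, 966 and 1140, and BMP7 gave 750, 630 and 695, in replicates II, III and VI. All 6 were above the highest untreated sample. The log2 change was 2.44 for BMP5 (SE 0.286, limma adjusted p = 6.06e-06) and 1.91 for BMP7 (limma adjusted p = 5.09e-05). BMP2 gave 61.3, 49.9, 81.2 and 105 in replicates II, III, IV and VI, and BMP4 gave 98.4, 95.8 and 61. All 7 were below the lowest untreated sample. The log2 change was -1.34 for BMP2 (SE 0.265, limma adjusted p = 0.000156) and -1.13 for BMP4 (limma adjusted p = 0.00202).

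The direct differences for Fstl1 were -3.25 for BMP2 against BMP7 (SE 0.286, limma adjusted p = 2.09e-08) and -3.04 for BMP4 against BMP7 (limma adjusted p = 1.28e-07). BMP2 against BMP4 gave -0.22 (95% interval -0.82 to 0.39). BMP3 gave 138, 152 and 259 in replicates II, III and IV, overlapping the untreated samples. Replicate IV was the highest Fstl1 sample in both the untreated and the BMP3 group, and it also had the highest summed fibroblast list in each. Without the replicate IV samples of the untreated, BMP2 and BMP3 groups, an alternative added after the data were seen, Fstl1 still passed with the same signs. The changes were then -1.15 for BMP2, -0.87 for BMP4, 2.69 for BMP5 and 2.16 for BMP7. The summed fibroblast list was at 27.3 to 47.8 normalized counts under BMP4, 70.4 to 93.0 under BMP2, 69.9 to 108 under BMP7 and 139 to 189 under BMP5, against 134 to 220 untreated. The interstitial-cell list, Kit and Ano1, summed to 1266 to 1443 normalized counts untreated, 4112 to 7415 under BMP2, 666 to 711 under BMP4, 3723 to 6233 under BMP5 and 4730 to 5958 under BMP7. Most of the higher sums was Ano1, a chloride channel gene, while the mean of Kit was 608 untreated and 147 to 497 under these 4 ligands. The mesothelial list, Msln and Upk3b, summed to 710 to 1143 untreated, 1491 to 4020 under BMP2, 1220 to 3000 under BMP4, 1242 to 3012 under BMP5 and 1001 to 2577 under BMP7, nearly all of it Msln; Upk3b was at 12.4 to 115 untreated and 0 to 2.27 under BMP2. The part of these lists in the Fstl1 differences was not tested.

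Fstl3 changed least clearly among the follistatin-like genes. Untreated samples held 15.8 to 27.5 normalized counts. BMP2 gave 28.2 to 49.9 (log2 change 0.85, SE 0.301, limma adjusted p = 0.0164) and BMP7 gave 32.7 to 42.3 (0.87, SE 0.325, limma adjusted p = 0.0469). Both ranges lay above the untreated one. With BMP5 the 3 samples were at 17, 57.4 and 37.4 and overlapped the untreated group (0.75, limma adjusted p = 0.0974). That difference passed without BMP5 replicate II (1.22, limma adjusted p = 0.00457), with edgeR (adjusted p = 0.0431) and with DESeq2 (adjusted p = 0.0384). BMP4 gave 0.57 (limma adjusted p = 0.135). BMP3 samples were at 12.5 to 15.2, just below every untreated sample (-0.45, limma adjusted p = 1). The BMP2 call was lost without BMP2 replicate III (limma adjusted p = 0.0608) and with equal totals (limma adjusted p = 0.226), and the BMP7 call in 6 of 7 reruns without a sample, all but that without untreated replicate II, at adjusted p up to 0.154.

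Twsg1 fell with BMP4. Untreated samples II, III, IV and VI held 1520, 1340, 1310 and 1340 normalized counts, and BMP4 samples II, III and VI held 780, 949 and 848. The BMP4 mean was 0.624 times the untreated mean (log2 change -0.68, SE 0.0917, limma adjusted p = 3.01e-06), and no BMP4 sample reached the untreated range. With BMP3, BMP5 and BMP7 the Twsg1 samples lay between 1210 and 1540. The change was 0.02, 0.04 and 0.01, and the 95% intervals stayed within -0.19 and 0.23. BMP2 gave 1320, 1470, 1330 and 1370 (log2 change -0.00, 95% interval -0.18 to 0.17). That BMP2 value depended on the scaling: it became -0.46 with equal totals (limma adjusted p = 4.59e-05) and -0.24 after quantile normalization (limma adjusted p = 0.00932). Equal totals also moved the median of all genes to -0.48 for BMP2 and -0.35 for BMP4. Twsg1 was 0.68 higher with BMP2 than with BMP4 (SE 0.0917, limma adjusted p = 2.81e-06), and BMP4 against BMP7 gave -0.69 (limma adjusted p = 7.91e-06). BMP2 against BMP7 gave -0.01 (95% interval -0.20 to 0.18), and -0.40 with equal totals (limma adjusted p = 0.000687).

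**Figure D2:**
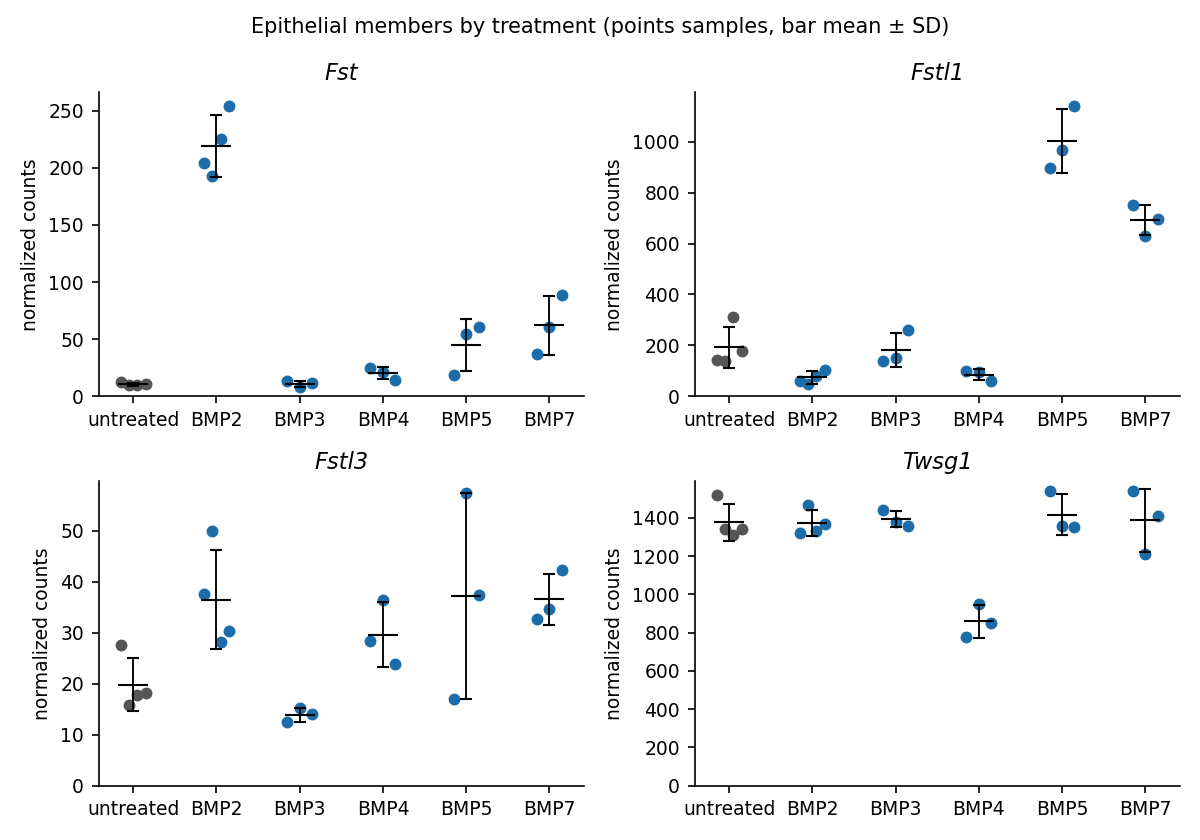
Normalized counts of Fst, Fstl1, Fstl3 and Twsg1 in each organoid sample of the BMP table, by treatment; points are samples and bars give mean ± SD over 3 or 4 samples. Fst is highest with BMP2 (193 to 254), Fstl1 with BMP5 (898 to 1140), and Twsg1 is lowest with BMP4 (780 to 949).

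The remaining members stayed near the counting floor in organoids. Bmper had 4, 9, 6 and 4 reads with BMP2 in replicates II, III, IV and VI, and 0 or 1 read in each untreated sample. Its BMP2 mean was at least 2.64-fold higher than untreated, with the untreated group set at the floor of 3 reads per library. Pdgfra, on the fibroblast list, also stood higher with BMP2, at 12.8 to 37.5 normalized counts against 0 to 1.78. Col1a1, on the same list, was at 10.2 to 20.5 with BMP2 and at 0.826 to 19.5 untreated, where its median was 1.69. The summed fibroblast list went the other way, at 70.4 to 93.0 normalized counts with BMP2 and 134 to 220 untreated. Grem1 had 0 reads and Col3a1 at most 1.18 normalized counts in those BMP2 samples. The part of these genes in the Bmper difference was not tested. When the filter was lowered to a mean of 1, limma gave Bmper an adjusted p of 0.000182 for BMP2. For BMP7, where the samples had 2 to 4 reads, it was 0.0575. Nog had at most 3 reads in any organoid sample: 0 in all 4 untreated, 0 to 3 with BMP2 and 1 to 2 with BMP4. With no filter, limma called Nog for BMP2 (adjusted p = 0.00855) and BMP4 (adjusted p = 0.0133), but every value was at or below the floor, so no fold is given. Chrd had 0 to 4 reads and was not called with any ligand; its limma adjusted p over the 5 ligands in an F-test was 0.815.

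**Figure D3:**
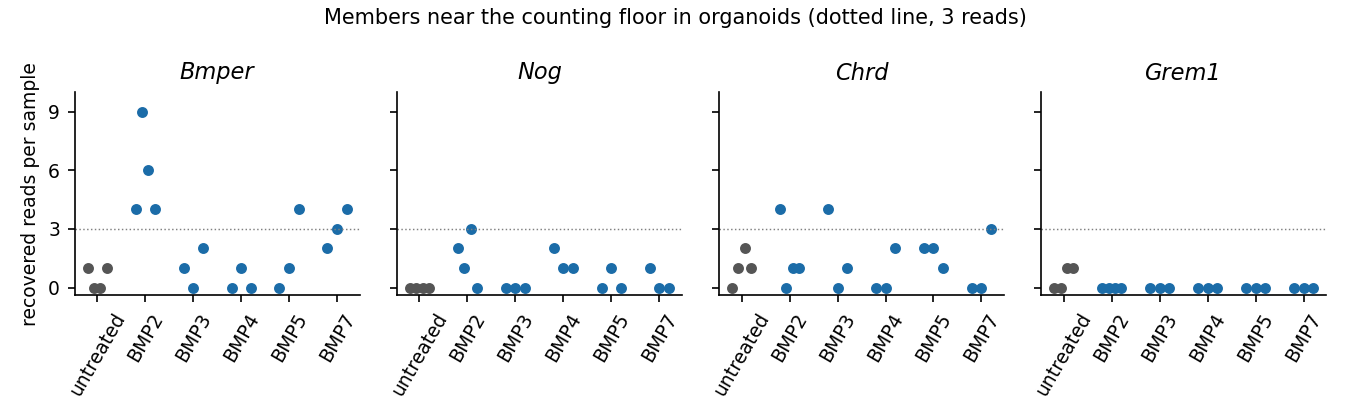
Recovered reads per organoid sample of Bmper, Nog, Chrd and Grem1, by treatment; the dotted line marks 3 reads. The 4 BMP2 samples of Bmper, at 4 to 9 reads, are the only group wholly above that line, and Grem1 has no read in any treated sample.

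The follistatin-like members rose with Tgfb in epithelium. Of the 9 members, 3 passed the filter of a mean of at least 1 TPM and all 3 were called by limma, as were 56.7% of 12959 genes. All 3 also had groups that did not overlap, as did 64.6% of genes. Fstl1 was at 1.40, 2.05 and 1.10 TPM in untreated samples I to III and at 21.1, 22 and 23.6 TPM with Tgfb. Every Tgfb sample was far above every untreated one, and the ratio of means was 14.6-fold (log2 change 3.22 on log2(TPM + 1), SE 0.148, limma adjusted p = 1.59e-05). Fstl3 was at 0.637, 0.557 and 0.397 TPM and rose to 3.41, 2.20 and 1.93 TPM (log2 change 1.18, SE 0.213, limma adjusted p = 0.00388). The log scale with a pseudocount of 1 understates such low genes; the ratio of Fstl3 means was 4.74-fold.

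Fst lay below the filter, at 0.0894, 0.169 and 0.112 TPM untreated and 1.28, 1.38 and 2.07 TPM with Tgfb. Its ratio of means was 12.8-fold, and with a filter of 0.1 TPM limma gave a log2 change of 1.18 (adjusted p = 0.000900). Twsg1 was at 16.8, 18.7 and 22.2 TPM untreated and 25.1, 24.2 and 24.2 TPM with Tgfb (log2 change 0.34, SE 0.105, limma adjusted p = 0.0310). That call was lost in 5 of the 6 reruns without a sample (adjusted p up to 0.0944) and held only without untreated replicate III. The summed fibroblast list was at 5.13 to 8.23 TPM untreated and 7.16 to 9.50 TPM with Tgfb. The mesothelial list (Msln and Upk3b) summed to 4.45 to 10.6 TPM untreated and 60.3 to 119 TPM with Tgfb, nearly all of it Msln, while Upk3b was at 1.35 to 1.87 and 0.141 to 0.183 TPM. The interstitial-cell list (Kit and Ano1) summed to 12.4 to 17.1 TPM untreated and 159 to 188 TPM with Tgfb, most of it Ano1, while Kit was at 9.11 to 13.6 and 4.06 to 6.85 TPM. The part of these lists in the Tgfb differences was not tested. The summed TPM of the 9 members went from 18.9 to 23.8 in untreated samples to 49.9 to 51.8 with Tgfb, and the share of Twsg1 in it was then 46.7% to 49.2%. Fstl1 with Tgfb was far below both mesenchymal samples, fresh at 736 TPM and immortalised at 547 TPM. Fst with Tgfb (1.28 to 2.07 TPM) lay between the immortalised cells at 1.13 TPM and the fresh cells at 4.16 TPM, in a table scaled separately. Bmper was listed at 0.115, 0.169 and 0.0141 TPM with Tgfb, Nog at 0.0320 TPM in a single Tgfb sample, and Grem1 and Chrdl1 stayed at 0.

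**Figure D4:**
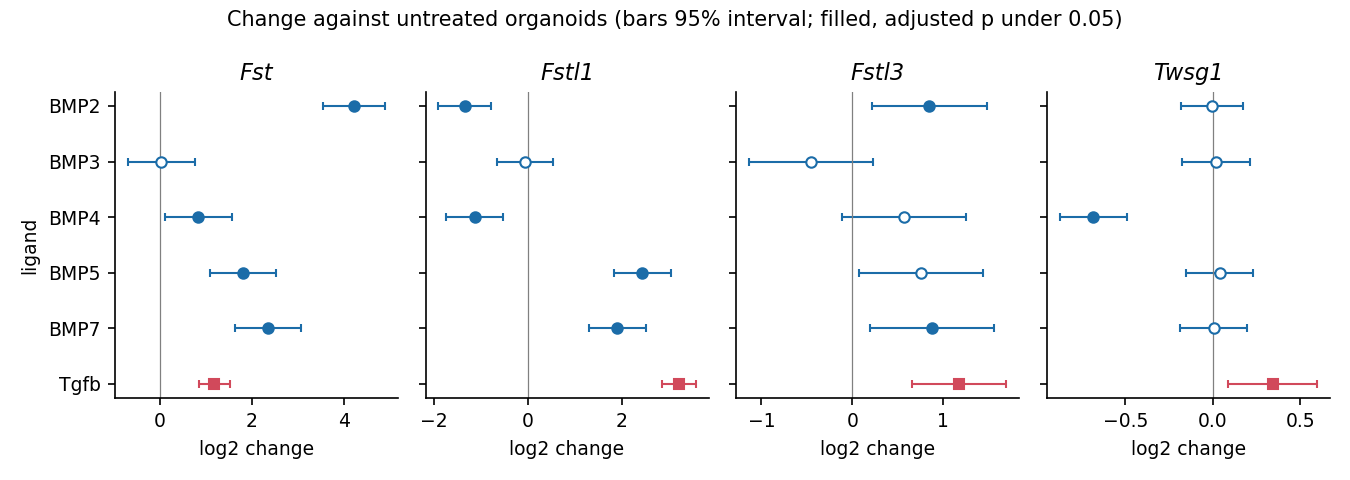
Log2 change of Fst, Fstl1, Fstl3 and Twsg1 against untreated organoids for each ligand, with 95% intervals; circles are the BMP table, squares the Tgfb table, and filled symbols have an adjusted p under 0.05 (Fst with Tgfb at the lower filter of 0.1 TPM). Fstl1 lies below 0 with BMP2 and BMP4 and above 0 with BMP5, BMP7 and Tgfb.

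Other genes of the same extracellular network were taken from lists. Of 20 further secreted antagonists, 8 were tested in the BMP table. BMP7 raised 3 and lowered 2, BMP5 raised 3 and lowered 1, and BMP2 and BMP4 each raised 2 and lowered 2; none was called for BMP3. The 4 of 8 called with BMP2 and with BMP4 stand against 75.1% and 65.1% of all genes, and the counts with BMP5 (4 of 8) and BMP7 (5 of 8) against 26.3% and 32.4%. With BMP2 and BMP4 the count is not above the share of all genes, and nothing is read from it. Their median log2 change was -0.19 under BMP2 (all genes -0.03), -0.03 under BMP4 (0.04), 0.23 under BMP5 (-0.03) and 0.22 under BMP7 (-0.05). Smoc2, a matrix protein known as an intestinal stem cell marker and BMP modulator, fell from 5960 to 7130 normalized counts untreated to 21.6 to 70.9 with BMP2 (log2 change -7.29, limma adjusted p = 3.72e-13). It also fell with BMP4 (-4.98), BMP7 (-2.59), BMP5 (-1.56) and Tgfb (-3.33). Nbl1, an antagonist of the DAN family to which Grem1 belongs, rose with BMP2 (3.70), BMP4 (1.73), BMP5 (1.81), BMP7 (1.93) and Tgfb (3.07). Nbl1 was at 79.8 to 143 normalized counts untreated and 1160 to 1850 with BMP2. Fstl4, a follistatin-like gene, fell with BMP2 (-3.12) and BMP4 (-5.89) and rose with BMP5 (2.34), BMP7 (1.81) and Tgfb (1.74), the same signs as Fstl1.

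Bmp1, the tolloid protease known to cut chordin and so release BMPs, was the 1 of 3 chordin proteases with enough counts to test. It was at 74.6 to 150 normalized counts untreated and rose with BMP2 to between 822 and 1190 (log2 change 3.37, limma adjusted p = 1.46e-09). It rose with BMP5 (1.73), BMP7 (1.87) and Tgfb (3.01), and BMP4 gave 0.11 (limma adjusted p = 0.754). Chrd itself had at most 4 reads in these organoids. In mesenchyme, Bmp1 was at 135 TPM in fresh and 101 TPM in immortalised cells, and Tll1, another tolloid protease, at 8.39 and 27.3 TPM. Among the further antagonists, Smoc2 was at 37.4 TPM in fresh and 3.29 TPM in immortalised cells, and Smoc1 at 5.79 and 0.258 TPM.

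**Figure D5:**
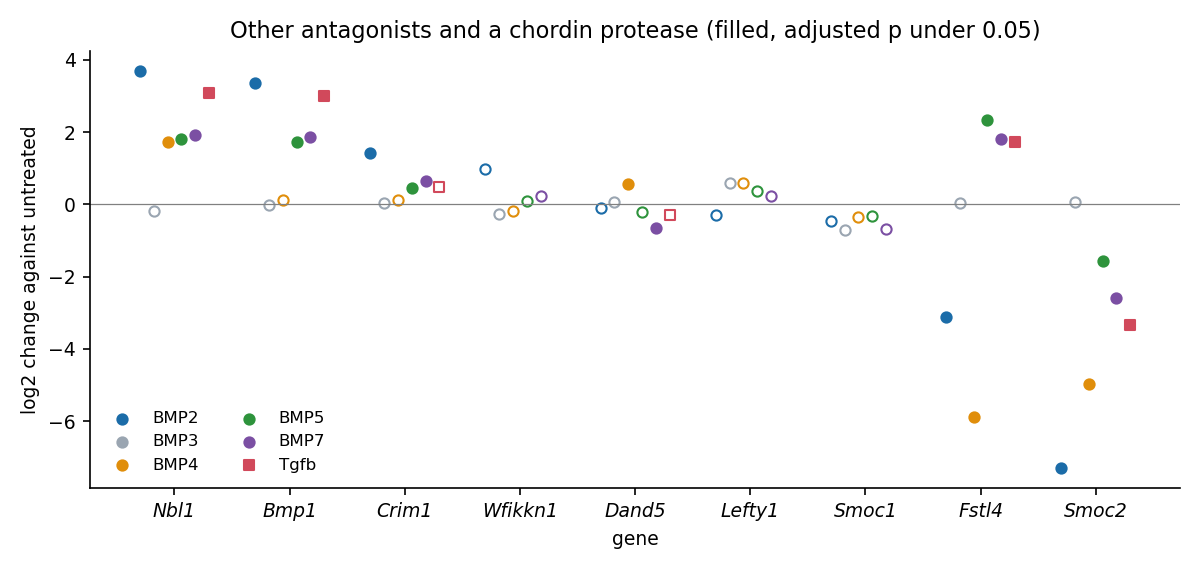
Log2 change against untreated organoids of the other tested antagonists and Bmp1 (colours are ligands; squares are Tgfb; filled symbols have an adjusted p under 0.05). Nbl1 lies above 0 with every ligand except BMP3, Smoc2 below 0 with every ligand except BMP3, and Fstl4 on both sides.

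The ligands that these antagonists bind, and their receptors, gave the setting. Of 13 ligand genes, 6 were tested in the BMP table; 3 rose and 3 fell under BMP2, 1 and 3 under BMP4, 2 and 1 under BMP5, and 1 and 2 under BMP7. The shares of all genes called were, in that order, 75.1%, 65.1%, 26.3% and 32.4%. Bmp4 transcript was at 0 to 0.83 normalized counts untreated and 31.6 to 72.9 with BMP2 (log2 change 5.45). It also rose with BMP5 (3.16), BMP7 (3.44) and Tgfb (1.55). Fresh mesenchyme held 151 TPM of Bmp4, a unit that cannot be set against normalized counts. Bmp7 fell with BMP2 (-6.53, limma adjusted p = 9.38e-11), BMP4 (-3.75), BMP7 (-1.65) and Tgfb (-2.09). Of 12 receptor genes, 9 were tested; 6 rose and 1 fell under BMP2, 4 and 3 under BMP4, and 3 and 1 under each of BMP5 and BMP7. Acvr1c, a type I receptor of the activin and nodal branch, fell with BMP2 (-3.85), BMP4 (-2.32), BMP7 (-1.31) and BMP5 (-0.83), and Acvr2b, a type II receptor, fell with BMP4 (-1.41). Acvr1, a type I receptor for BMPs and activins, rose with BMP2 (2.79), BMP7 (1.68), BMP5 (1.40) and BMP4 (0.54). As a check of the treatments, Id1, a direct target of BMP signalling, was at 112 to 171 normalized counts untreated, 124 to 136 under BMP3, 667 to 1070 under BMP5, 1480 to 2330 under BMP7, 1960 to 3510 under BMP4 and 2700 to 2970 under BMP2.

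Genes whose pattern was most like each tested member were found by Pearson r of log2(normalized count + 1) over the 20 samples of the BMP table, which share groups, libraries and scaling. For Fst they were Smox (r = 0.981), Parp8 (0.981) and Cnn2 (0.980). For Fstl1 they were Shank2 (0.931), Nkd1 (0.931) and Plekhb1 (0.928), and for Twsg1 they were Efna4 (0.957), Mpzl1 (0.950) and Gm10241 (0.949). For Fstl3 the likeness was lower, with Tns4 (0.850), AC160336.1 (0.848) and 2610035D17Rik (0.840). These values describe group patterns over samples.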

How the data were processed

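Reads were trimmed and quantified with Trim Galore and Salmon on GRCm39 and normalized with DESeq2, per the submitters' processing notes; no versions are given in the sources used here. The BMP table holds the authors' deposited normalized signal: gene counts divided by a size factor. Whole reads were recovered from its steps, with 100% of 180236 values of up to 20 reads whole (within a fraction of 0.02 of the whole number); 21.0% of values exceed 999 reads and are known to 3 digits only. The Tgfb and mesenchymal tables hold TPM deposited by the authors. Members and gene lists were chosen with earlier results of these data known. Main tests were limma 3.58.1 (R 4.3.3) with trend on log2(value + 1), Benjamini-Hochberg adjusted, on genes with a mean of at least 10 normalized counts (20 samples, 1 fit) or 1 TPM. Count tests on recovered reads used edgeR 4.0.16 and DESeq2 1.42.0 as alternatives. The filter leaves Nog, Grem1, Chrd and Bmper untested in the BMP table. Named genes were all members, up to 3 called genes with the largest change per list and comparison, and the 3 genes most like each tested member; some are not reported here. Other choices tried were pseudocounts, filters, scalings, the replicate block and leaving out samples. Same-numbered samples deviated together (r 0.158 to 0.553) in BMP3, BMP4, BMP5 and BMP7 groups and the untreated group, so the numbers pair these; in BMP2 1 of 4 pairs was at 0.0182, and Tgfb pairs were at 0.00405 to 0.0696. The main fits left this pairing out, so their p-values and the shares of all genes do not take it into account. Only the replicate block, an alternative, does. The script was tested on simulated data.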

Additional observations from a re-analysis of the deposited data

Results flagged for a closer look

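Twsg1 in the untreated group of the BMP table had a single far sample: replicate II was at 1520 normalized counts and the others at 1310 to 1340, a gap of 0.857 of the group's whole range. Chance flags about 1 in 20 groups, and 14 groups of the members were examined this way, with 1 found.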

How the results depend on the processing

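Of 855 recomputed values of the members, 776 kept their direction and their side of the threshold. Among calls against untreated organoids, those of Fst with BMP2, BMP5 and BMP7, Fstl1 with BMP2, BMP4, BMP5, BMP7 and Tgfb, Fstl3 with Tgfb and Twsg1 with BMP4 held in every rerun. The calls of Fst with BMP4, Fstl3 with BMP2 and BMP7 and Twsg1 with Tgfb did not, as given above. With no filter, 5 members were called with BMP2 in place of 3, since Bmper and Nog then entered the test. With a mean of at least 10 TPM, 2 members in place of 4 passed 2-fold between the mesenchymal samples, since fewer genes remained, and a pseudocount of 5 moved Fst there to -0.58. The replicate block changed no call of a tested member and left the BMP2 count of members at 3. Over all genes it moved the number called from 3884 to 5738 with BMP5 and from 4773 to 6689 with BMP7. It moved BMP2 from 11077 to 11858, BMP4 from 9597 to 10582, and BMP5 against BMP7 from 2 to 6. Leaving out BMP5 replicate III or VI lowered the genes called with BMP5 from 3884 to 2515 or 2532. Differences near 0 that missed the threshold in the main test changed sign, and the cause was not tested; of these, Twsg1 was called with BMP2 and for BMP2 against BMP7 under another scaling, as given above. For Twsg1 with BMP7 the value was -0.0655 with equal totals, -0.0937 after quantile normalization, -0.0112 with the replicate block and -0.0183 without the replicate IV samples; for Twsg1 with BMP2 it was 0.0036 with DESeq2, and for Twsg1 with BMP5 -0.011 after quantile normalization. Fst with BMP3 was -0.0431 without the replicate IV samples. BMP2 against BMP7 gave 0.20 (quantile), 0.0127 (DESeq2), 0.0206 (replicate block) and 0.0814 (no replicate IV) for Fstl3, and 0.0023 (DESeq2), 0.0071 (replicate block) and 0.0056 (no replicate IV) for Twsg1. BMP5 against BMP7 gave 0.0209 (edgeR) and 0.0348 (DESeq2) for Fstl3. Leaving out each replicate in turn, Twsg1 ran from -0.0375 to 0.0441 with BMP2, -0.0054 to 0.0667 with BMP3, -0.0212 to 0.0884 with BMP5 and -0.0741 to 0.0997 with BMP7. With BMP3, Fst ran from -0.11 to 0.19 and Fstl1 from -0.33 to 0.20. For BMP2 against BMP7 the ranges were -0.19 to 0.0814 (Fstl3) and -0.10 to 0.0701 (Twsg1), and for BMP5 against BMP7 -0.51 to 0.34 (Fstl3) and -0.0594 to 0.11 (Twsg1). Depth limits Bmper, Nog, Chrd and Grem1 in organoids.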
